A study of Mus musculus with 202 samples.

Results

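The genes described here carry the cyclic AMP signal that holds a mouse oocyte in meiotic arrest. They are 10 of the 23995 gene symbols in the deposited count table. The receptor is Gpr3 and the G protein subunit is Gnas. Adcy3 and Adcy9 are adenylyl cyclases and Pde3a is a phosphodiesterase. The rest encode protein kinase A (PKA): the catalytic subunits Prkaca and Prkacb, and the regulatory subunits Prkar1a, Prkar2a and Prkar2b. The genes were chosen by symbol. The oocytes were selected on measured values: a minimum of 100000 counts in genes and of 4000 detected genes, which kept 157 of 202. The kept oocyte with the fewest counts had 133654, and the excluded oocyte with the most had 98791 with 6720 genes detected. The kept oocyte with the fewest genes had 4603.

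Each library was 1 oocyte at metaphase II (MII) from a C57Bl/6J mouse, made with Smart-seq2, a full-length RNA method for single cells. The 11 groups follow the sample titles. They combine the generation (F1, F2 or F3) with the treatment given to the founding F0 female. Her diet was a control diet (CD) or one high in fat and sugar (HFHS). She received vehicle (Veh) or dihydrotestosterone (DHT), an androgen that the body does not convert to estrogen. CD+Veh was the reference in each generation. The study's title names prenatal androgen exposure and polycystic ovary syndrome, and the age of the females is not given in the sources used here. In F1, 10 oocytes of CD+Veh were kept, 8 of CD+DHT, 14 of HFHS+Veh and 13 of HFHS+DHT. In F2, 16 of CD+Veh (4 animals), 25 of CD+DHT (5 animals), 20 of HFHS+Veh (4 animals) and 5 of HFHS+DHT were kept. In F3, 20 of CD+Veh, 13 of CD+DHT and 13 of HFHS+Veh (5 from animal 22 and 8 from animal 26) were kept. All libraries of a further F3 HFHS+Veh animal, 25, were excluded, at 1639 to 13586 gene counts. The filter left out the most libraries in F3 CD+DHT and F3 HFHS+Veh (11 of 24 each). It left out 0 in F2 CD+DHT, F2 HFHS+Veh and F2 HFHS+DHT. Animal numbers were read from the titles, and the remaining groups name none.

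In the growing oocyte, GPR3 is active without a ligand and couples to the stimulatory G protein, whose alpha subunit Gnas encodes. That protein turns on adenylyl cyclase, and the cyclic AMP made releases the catalytic subunits of PKA from the regulatory ones. PKA keeps the kinase WEE1B (Wee2) active and the phosphatase CDC25B out of the nucleus, so that cyclin B and CDK1 stay inactive and the oocyte stays in prophase. PDE3A breaks down cyclic AMP and is held back by cyclic GMP from the follicle cells until the ovulatory surge. An MII oocyte has passed this arrest, and the RNA measured is what remains of the message stored during growth.

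The kept libraries held 133654 to 16359078 gene counts. The median number of genes detected was 9539 in F1, 10036.5 in F2 and 7606 in F3. Of 21 MII oocyte markers, 19 had a median above 0, and Figla and Oog1 were at a median of 0. The summed level of 34 cumulus and granulosa markers, the genes of the somatic cells around the oocyte, had a median of 640 CPM (counts scaled to the same total of gene counts in each library) in F1, 157 in F2 and 1345 in F3. Of these 34, 21 had a median of 0 and 4 reached a median of 10 CPM. Those were Spp1 (89.4 CPM), Cyp19a1 (86.7 CPM, with a count in 154 of 157 oocytes), Kitl (10.41 CPM) and Nr5a2 (10.36 CPM). A low sum is therefore not a signal spread over the list. The highest sum was 60082 CPM, in F3 CD+Veh oocyte 21. This library goes against its label: its MII marker sum was 584 CPM, where the next lowest kept library had 14783, and 14.33% of its counts were spike-in. It passed the filter and was kept. In 36 libraries the characteristics contradict the title. All 15 titled F1 HFHS+Veh name dihydrotestosterone and all 5 titled F2 HFHS+DHT name vehicle. All 5 of F2 HFHS+Veh animal 10 and 3 of animal 5 name F3, and all 8 of F3 HFHS+Veh animal 22 name F2.

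Levels of different genes are compared per length, in the authors' RPKM, reads scaled for gene length and library size. By the median over all 157 oocytes, Gnas was highest (93.8 RPKM), followed by Prkaca (48.9), Prkar1a (46.4), Prkar2a (26.83), Prkar2b (26.22), Gpr3 (20.4), Pde3a (5.23), Adcy9 (2.97), Prkacb (2.43) and Adcy3 (0). Not all neighbours in this order were distinct within oocytes. Prkaca exceeded Prkar1a in 82 of 157 oocytes and Prkar2a exceeded Prkar2b in 81, while Gpr3 exceeded Pde3a in 138. Prkar1a was the third by the median and the second by the mean (77.5 RPKM), and the order was not the same in the 3 generations. The length implied by the deposited RPKM of Gnas ran from 1331 to 2464 bases between oocytes, so 1 length was not used for it throughout. The same holds for Prkaca (1964 to 2301 bases) and Prkacb (3947 to 4303). Gnas is an imprinted locus with an antisense partner, and reads of the partner are not separable from its own where counting ignores strand, which is not given in the sources used here.

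**Figure D1:**
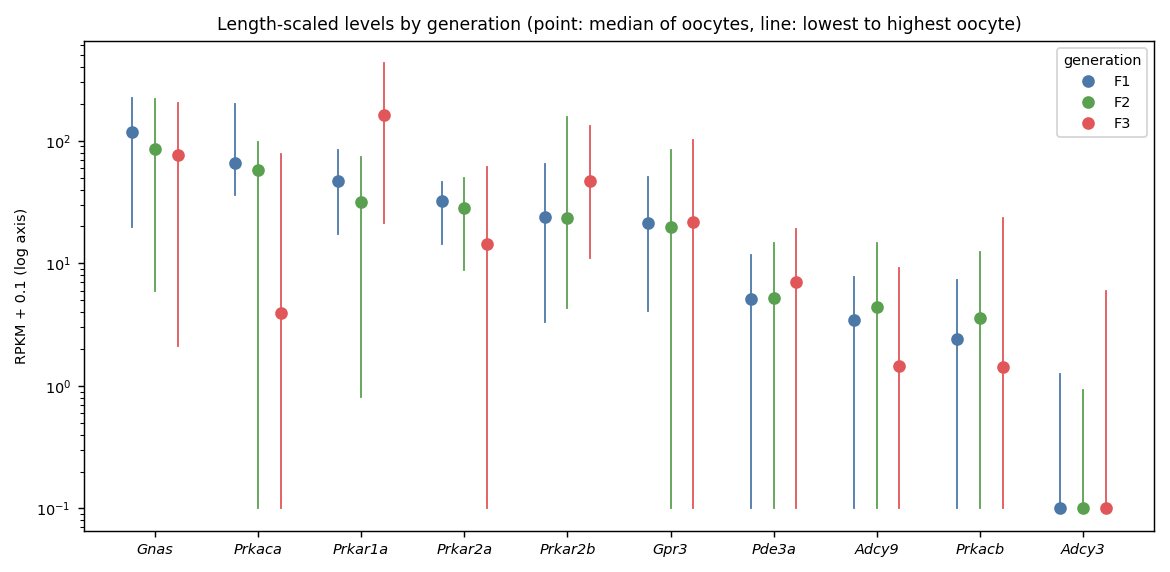
RPKM of the 10 genes (log axis, 0.1 added), with a point for the median and a line from the lowest to the highest kept oocyte of F1 (n = 45), F2 (n = 66) and F3 (n = 46). Prkar1a moves from the third place in F1 and F2 to the first in F3, and Prkaca from the second place to the seventh.

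Gpr3, the receptor gene (chromosome 4, 133209340 to 133212536, minus strand, GRCm38), was present at similar median levels in each generation. Its median was 45.6 CPM in F1 (8.60 to 109), 42.1 in F2 (0 to 179) and 45.9 in F3 (0 to 217). It had a count in 45 of 45 F1 oocytes, 65 of 66 F2 oocytes and 41 of 46 F3 oocytes. The ranges overlapped almost throughout. The related receptors Gpr12 and Gpr6, which also signal without a ligand, had a count in 36 and 2 of 157 oocytes. The median share of Gpr3 in the summed RPKM of the 3 receptors was 100%, and its lowest share was 67.5%.

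Gnas (chromosome 2, 174284320 to 174346744, plus strand) had a median of 188 CPM in F1 (48.8 to 348), 144 in F2 (7.99 to 313) and 123 in F3 (3.23 to 326). The lowest value in F3 was that of F3 CD+Veh oocyte 21. The lowest in F2 was in CD+DHT, and the generations overlapped.

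Of the adenylyl cyclases, Adcy9 (chromosome 16, 4287529 to 4420498, minus strand) led. Its median share of the summed cyclase RPKM was 54.5% in F1, 69.8% in F2 and 32.4% in F3. Its median level was 25.275 CPM in F1 (0 to 57.6), 32.6 in F2 (0 to 110) and 10.19 in F3 (0 to 69.7). Adcy3 (chromosome 12, 4133103 to 4213525, plus strand), the cyclase named most often in mouse oocytes, was almost undetected. It had a count in 26 of 157 oocytes and a pooled level of 0.0571 to 0.771 CPM in 9 of the groups. F3 CD+DHT stood apart at 7.73 CPM, and 370 counts came from 3 of its 13 oocytes. Oocyte 14, the deepest library of all, gave 317 of them (19.38 CPM), oocyte 4 gave 23 (13.6 CPM) and oocyte 13 gave 30 (5.12 CPM). F3 HFHS+Veh had 0 pooled counts, which allows a level of up to 0.392 CPM. These limits and all intervals here cover counting error only.

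Pde3a (chromosome 6, 141249269 to 141507448, plus strand) had a median of 21.1 CPM in F1 (0 to 48.96), 21.2 in F2 (0 to 60.8) and 29.7 in F3 (0 to 79.5). Its median share was 5.88% of the RPKM summed over 20 genes with a phosphodiesterase symbol. That sum was not limited to enzymes that break down cyclic AMP and includes Pde6d (median 18.2 RPKM) and Pde12 (3.86 RPKM). Pde3b, its close relative, took a median of 35.1% and had a median of 29.0 RPKM against 5.23 for Pde3a.

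The PKA subunits differ at the site where a regulatory subunit blocks the catalytic one. Type I subunits (Prkar1a) present an alanine there, which PKA cannot phosphorylate, and type II subunits (Prkar2a, Prkar2b) present a serine, which it can. The coding sequence around that site is shown because the mix of subunit types differs between generations below. The capitals mark the codon of the site, read in the GENCODE annotation of GRCm38.
Prkar1a, codon 99, chr11:109660098-109660127, plus strand, exonic: ggccgacggcgccgaggtGCTatcagtgct
Prkar2a, codon 97, chr9:108714287-108716870, plus strand, spliced over exons 2 and 3: aaatttactagacgagtaTCAgtctgtgca
Prkar2b, codon 112, chr12:31993776-32038643, minus strand, spliced over exons 2 and 3: cggttcacaaggcgtgccTCGgtctgtgca

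Prkar1a (chromosome 11, 109649405 to 109669656, plus strand) was higher in F3 than in F1 and F2. Its median over oocytes was 192 CPM in F1 CD+Veh (62.0 to 279.03), 163 in F1 CD+DHT (71.1 to 193), 168 in F1 HFHS+Veh (66.1 to 269) and 110 in F1 HFHS+DHT (57.7 to 241). In F2 it was 111 in CD+Veh (67.2 to 198), 84.7 in CD+DHT (30.1 to 223), 109 in HFHS+Veh (2.35 to 243) and 103 in HFHS+DHT (80.9 to 120). In F3 it was 488 in CD+Veh (257 to 928), 567 in CD+DHT (70.3 to 1123) and 628 in HFHS+Veh (238 to 1429). Of the 46 F3 oocytes, 40 lay above the highest F1 or F2 oocyte (279.03 CPM). The same count was not made over all genes.

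Prkaca (chromosome 8, 83972993 to 83996443, plus strand) went the other way. Its median was 126 CPM in F1 CD+Veh (90.8 to 420), 127 in F1 CD+DHT (113 to 219), 128 in F1 HFHS+Veh (73.7 to 280) and 143 in F1 HFHS+DHT (96.4 to 232). In F2 it was 133 in CD+Veh (67.3 to 171), 104 in CD+DHT (0 to 226), 126 in HFHS+Veh (84.7 to 200) and 113 in HFHS+DHT (103 to 133). In F3 it was 9.75 in CD+Veh (0.942 to 187), 11.7 in CD+DHT (2.201 to 44.3) and 3.91 in HFHS+Veh (0 to 34.2). Oocyte 21 of F3 CD+Veh, the richest in cumulus markers, held the 187 CPM. The next highest F3 oocyte had 67.1 CPM, and 1 of the 111 F1 and F2 oocytes lay below that: oocyte 5 of F2 CD+DHT animal 17, at 0 counts of 696316. How many of all genes separate the generations in this way was not counted.

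The other subunits overlapped more between generations. Prkar2b (chromosome 12, 31958476 to 32061296, minus strand) had a median of 79.3 CPM in F1 (10.8 to 220), 77.6 in F2 (14.36 to 520) and 155 in F3 (36.4 to 513). Prkar2a (chromosome 9, 108689314 to 108750436, plus strand) had a median of 130 CPM in F1 (58.5 to 186), 113 in F2 (35.2 to 200) and 57.2 in F3 (0 to 246). Prkacb (chromosome 3, 146729574 to 146812990, minus strand), the lesser catalytic gene, had a median of 9.26 CPM in F1 (0 to 29.3), 14.37 in F2 (0 to 49.5) and 5.37 in F3 (0 to 92.8).

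**Figure D2:**
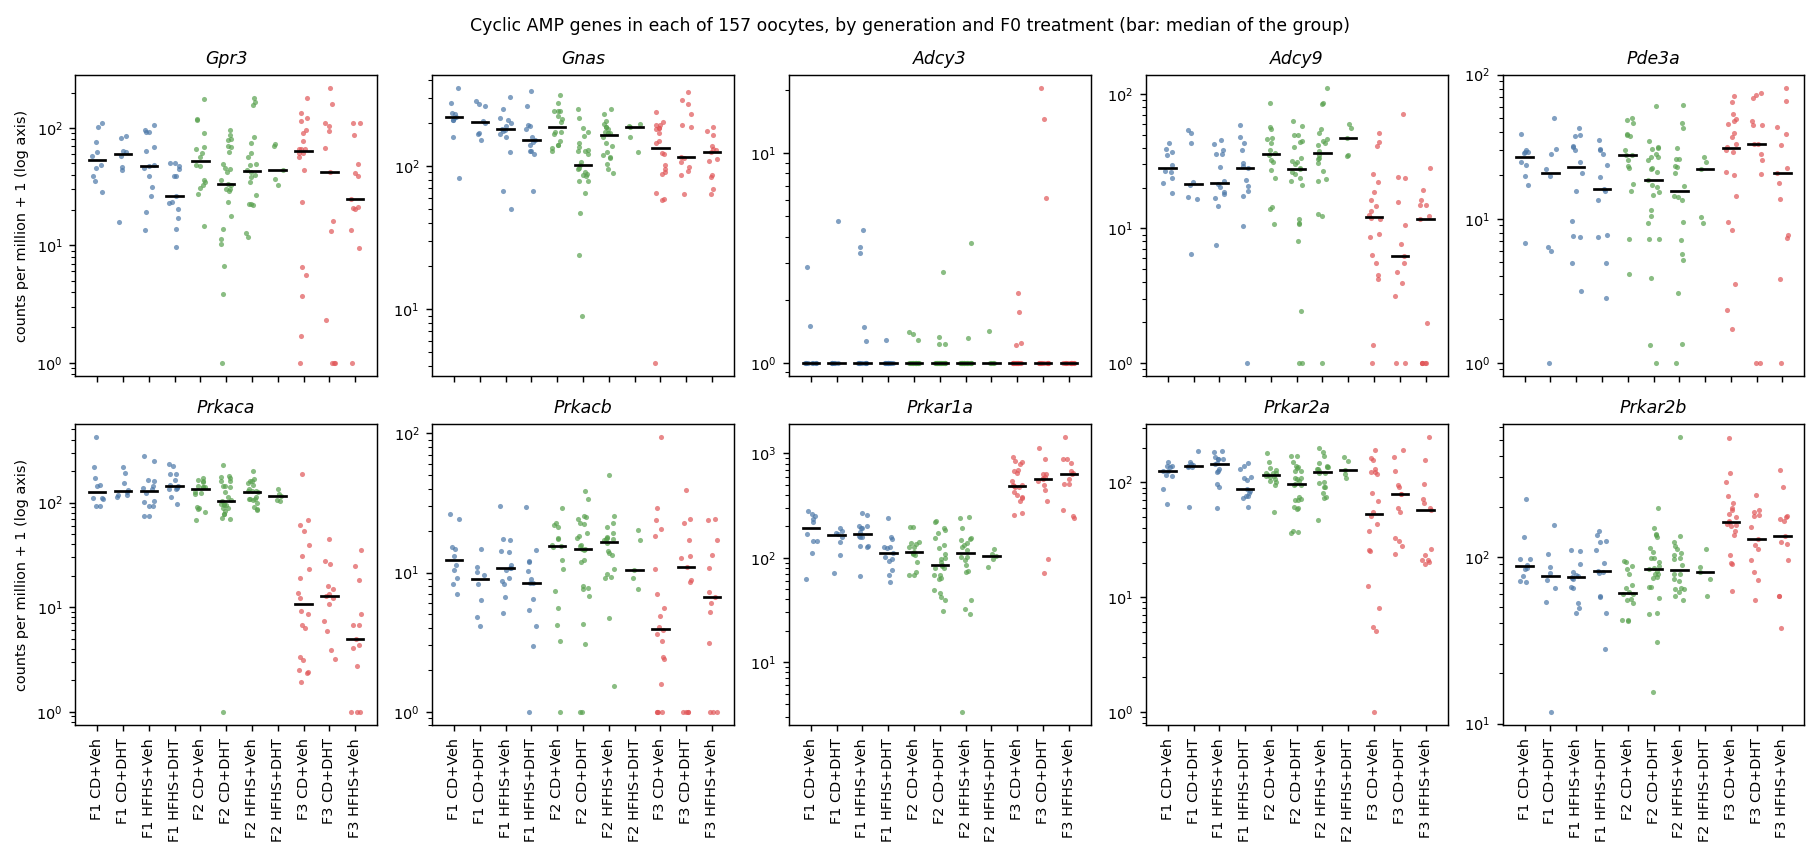
CPM of each gene plus 1 (log axis) in each of the 157 kept oocytes, by group, with a bar at the group's median (F1 blue, F2 green, F3 red). All 3 F3 groups lie high for Prkar1a (medians 488 to 628 CPM) and low for Prkaca (medians 3.91 to 11.7 CPM), in each F0 treatment.

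The ratio of regulatory to catalytic message, each summed in RPKM within an oocyte, had a median of 1.45 in F1 (0.380 to 3.51) and 1.41 in F2 (0.482 to 4.64). In F3 the median was 29.4 (2.91 to 616) over 45 oocytes. The ratio of 616, in oocyte 1 of HFHS+Veh animal 26, rests on 1 count of Prkaca and 0 of Prkacb. The other F3 oocyte, oocyte 3 of the same animal, had 0 counts of both in 186934, which allows up to 16.05 CPM of each gene, and has no ratio. Of those 45, 43 lay above the highest F1 or F2 ratio of 4.64. Oocyte 21 of F3 CD+Veh was 1 of the other two, at 3.94. The share of Prkar1a in the regulatory message had a median of 44.7% in F1, 37.0% in F2 and 73.2% in F3. In animals, the ratio of mean RPKM was 0.709 to 2.52 over the 13 F2 animals, 28.9 in F3 animal 22 and 54.8 in F3 animal 26. These are ratios of messages, not of protein, and the gene lengths behind the catalytic RPKM vary between oocytes as given above.

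**Figure D3:**
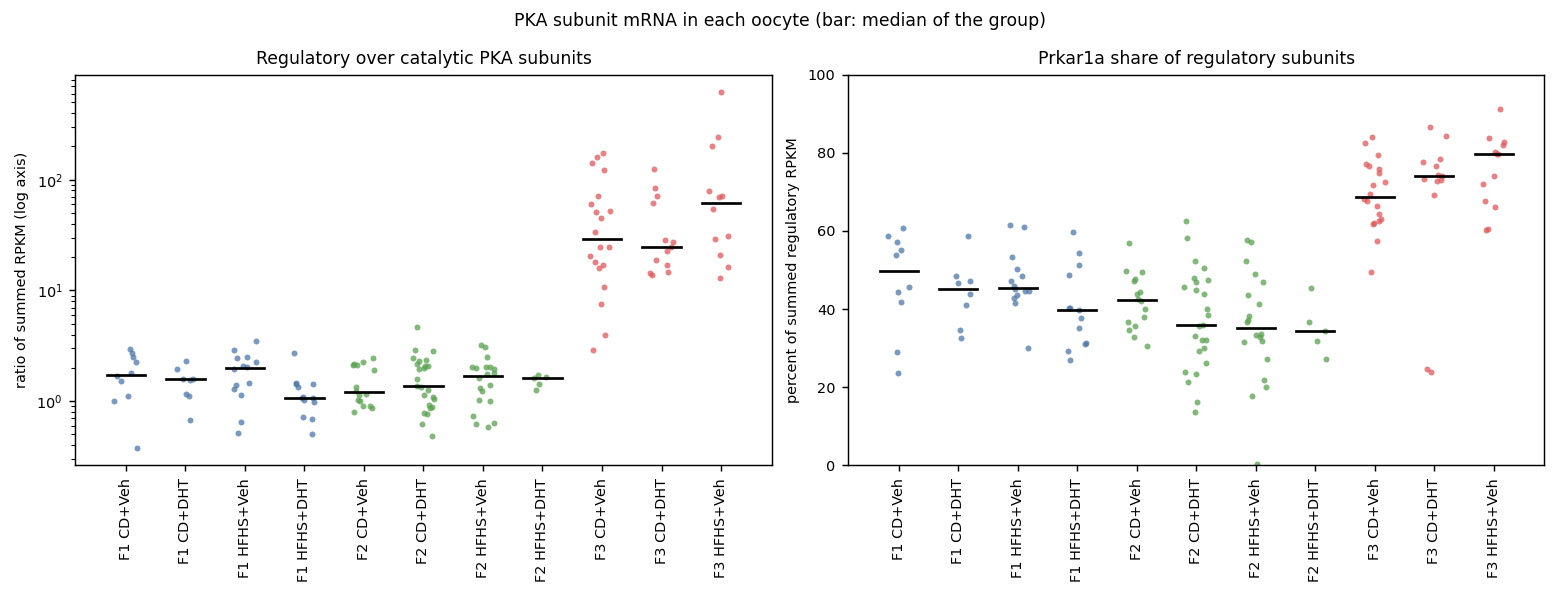
Left, the ratio of summed regulatory to summed catalytic PKA RPKM in each oocyte (log axis). Right, the percent of the regulatory RPKM that is Prkar1a. Bars are group medians, and the ratio had F3 medians of 24.5 (CD+DHT), 29.3 (CD+Veh) and 62.3 (HFHS+Veh) against 1.08 to 2.002 in the F1 and F2 groups.

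The F2 comparisons ask whether the lineages differ in these genes when the animal is the replicate. No member passed the test in any of them. Counts were summed over the oocytes of an animal and fitted with edgeR's quasi-likelihood test over all genes, with Benjamini-Hochberg adjustment and a threshold of 0.05. Nothing in the labels says how the females were related, so the p-values measure the spread between these animals. In CD+DHT against CD+Veh, 0 of 9 members tested were called, beside 0.0% of 11962 genes, and 220 genes had an unadjusted p under 0.05. In HFHS+Veh against CD+Veh it was 0 of 9 beside 0.0%, with 118 such genes. In CD+DHT against HFHS+Veh it was 0 of 9 beside 0.0%, with 125. DESeq2 called 1, 0 and 1 genes. Adcy3 was too low to be tested. The comparisons share groups and are not independent.

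Gnas and Prkar2b had the smallest unadjusted p. How many of all genes separate the F2 animals as these do below was not counted. The Gnas animal sums in CD+Veh were 166, 189, 191 and 252 CPM (animals 14, 2, 13 and 3). In CD+DHT they were 76.3, 92.7, 133, 143 and 143 CPM (animals 9, 6, 17, 7 and 8), all below the controls. In HFHS+Veh they were 117, 128, 170 and 187 CPM (animals 4, 10, 5 and 19), which overlapped both. The edgeR log2 fold change in CD+DHT against CD+Veh was -0.62 (SE 0.20, 95% interval -1.04 to -0.20), with an unadjusted p of 0.0061 and an adjusted p of 1.0. The unadjusted p was under 0.05 in 23 of 23 settings, and the adjusted p was 0.74 to 1.0. The settings, here and for Prkar2b, refit the same animals and are not separate evidence. Some leave out only HFHS+Veh animals, which are in neither group of this comparison. In HFHS+Veh against CD+Veh the log2 fold change was -0.33 (interval -0.77 to 0.11, adjusted p 1.0).

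For Prkar2b, the type II beta subunit, the animal sums were 53.8, 61.2, 65.5 and 76.2 CPM in CD+Veh (animals 13, 2, 14 and 3). They were 70.3, 78.1, 85.5, 91.4 and 95.5 CPM in CD+DHT (animals 7, 8, 6, 9 and 17), overlapping the controls in 1 animal. They were 81.3, 87.4, 92.1 and 103 CPM in HFHS+Veh (animals 19, 4, 10 and 5), all above the controls. The edgeR log2 fold change was 0.56 (SE 0.19, interval 0.15 to 0.96, unadjusted p 0.0098, adjusted p 1.0) in CD+DHT. It was 0.57 (SE 0.20, interval 0.15 to 0.995, unadjusted p 0.011, adjusted p 1.0) in HFHS+Veh. The unadjusted p was under 0.05 in 21 of 23 settings in CD+DHT (up to 0.18, with log2 fold changes of 0.30 to 0.65) and in 22 of 23 in HFHS+Veh (up to 0.10, with 0.43 to 0.66). Both comparisons use the same control animals.

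For the other members the intervals were wide. In CD+DHT against CD+Veh, Gpr3 was at -0.23 (interval -0.92 to 0.46) and Pde3a at -0.45 (interval -1.10 to 0.20). Adcy9 was at -0.35 (interval -1.02 to 0.32). Prkaca was at 0.05 (interval -0.61 to 0.72) and Prkar1a at 0.12 (interval -0.47 to 0.70). The median log2 fold change of the 9 members was -0.03, beside -0.01 over all genes. Differences of the size these intervals hold would not have been seen. The SD of log2(CPM + 1) between animals of a group was 0.81 for Gpr3, 0.79 for Adcy9, 0.42 for Gnas and 0.19 for Prkar2b, beside a median of 0.49 over 5357 genes with a median of at least 10 CPM. Between oocytes of an animal it was 1.16 for Gpr3, 1.32 for Adcy9, 0.67 for Gnas and 0.71 for Prkar2b, beside 0.81.

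**Figure D4:**
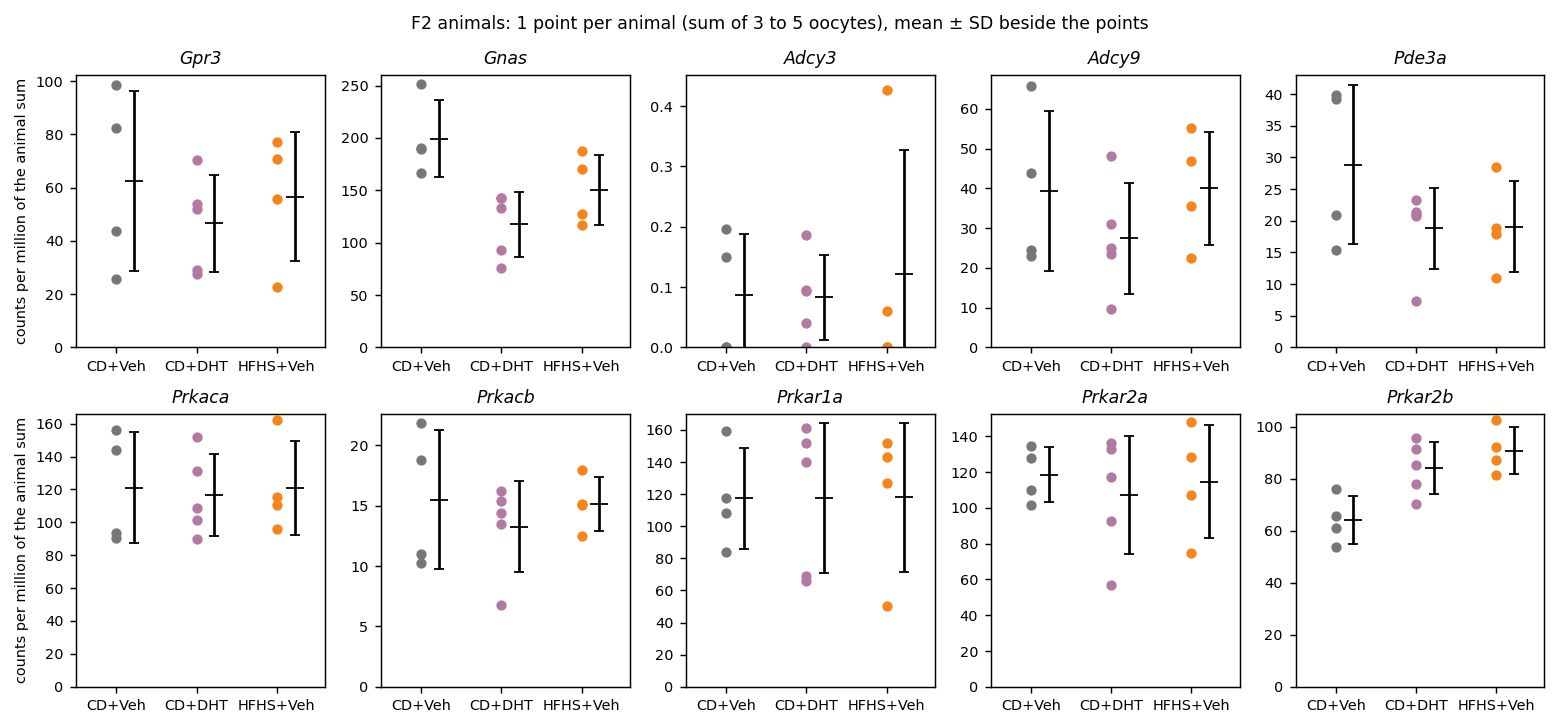
CPM of the animal sum for each gene in F2 CD+Veh (4 animals), CD+DHT (5) and HFHS+Veh (4), 1 point per animal, with the mean ± SD beside the points. For Gnas the CD+DHT animals (76.3 to 143 CPM) lie below the CD+Veh animals (166 to 252 CPM), and no gene passed the edgeR test at an adjusted p of 0.05.

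In F1 no animal is named, so a group counts as a single sample and has no test. Its oocytes were pooled, and a member is said to be past 1.5-fold where the log2 ratio of pooled CPM, with 0.5 CPM added, exceeds that size. It had to reach 10 pooled CPM in either group, which 9 of 10 members did in each F1 comparison. In CD+DHT against CD+Veh, 1 member was past 1.5-fold, beside 12.01% of 6126 genes. This was Adcy9, at 38.0 CPM (95% Poisson interval 33.8 to 42.5) against 24.998 (22.96 to 27.2). Its direction turned with the mean over oocytes in place of the pooled count (log2 fold -0.064), and leaving out any 1 of 5 oocytes (CD+Veh 6 or 11, CD+DHT 2, 3 or 6) brought it under 1.5-fold. In HFHS+Veh against CD+Veh, 0 members were past 1.5-fold, beside 8.458%. All 15 HFHS+Veh libraries have characteristics that name dihydrotestosterone.

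HFHS+DHT had the lowest pooled Gpr3 and Prkar1a levels of the F1 groups. Against CD+Veh, 2 members were past 1.5-fold, both lower, beside 13.83% of 6103 genes. Gpr3 was at 37.9 CPM (35.1 to 40.9) against 71.5 (68.0 to 75.1), with 8.60 to 49.2 in single oocytes (median 25.56) against 27.4 to 109 (median 52.2). Prkar1a was at 138 CPM (132 to 143) against 215 (209 to 221). Without CD+Veh oocyte 6 neither was past 1.5-fold, with log2 folds of -0.57 for Gpr3 and -0.45 for Prkar1a against -0.91 and -0.64 with it. Prkar1a was also under 1.5-fold without HFHS+DHT oocyte 6. Against HFHS+Veh, Gpr3 was again lower (37.9 against 65.9 CPM), the only member past 1.5-fold, beside 10.35%. These comparisons share the HFHS+DHT oocytes. The median MII marker sum was 40917 CPM in HFHS+DHT, 62461 in CD+Veh and 63651 in HFHS+Veh, and the median number of genes detected was 8226, 9642.5 and 10640.5. Their part in the differences was not tested.

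In F3 the groups were also compared as pooled counts without a test. In CD+DHT against CD+Veh, 2 of 9 measured members were past 1.5-fold, beside 27.38% of 6073 genes, a share close to that of all genes. Prkar2a was higher (138 against 84.7 CPM) and Adcy9 lower (8.92 against 16.96 CPM). Both came under 1.5-fold without CD+DHT oocyte 14, which holds the most counts of that group, and Prkar2a also without CD+DHT oocyte 15. Neither was past 1.5-fold with the mean over oocytes, at log2 folds of 0.20 for Prkar2a and -0.25 for Adcy9, or with mean RPKM. Prkaca was past it there instead, at -0.88 with the mean, while its pooled log2 fold was 0.35 and that of the medians was 0.25. The CD+Veh mean of Prkaca includes oocyte 21, at 187 CPM beside a group median of 9.75. The mean was not taken without that oocyte. In HFHS+Veh against CD+Veh, 3 of 8 measured members were past 1.5-fold, all lower, beside 27.45% of 5848 genes. Gpr3 was at 39.4 CPM (35.1 to 44.1) against 79.4 (77.1 to 81.7). Prkaca was at 8.61 (6.66 to 10.96) against 21.1 (19.98 to 22.34), and Adcy9 at 9.53 (7.47 to 11.98) against 16.96 (15.9 to 18.04). The Adcy9 difference came under 1.5-fold with the median over oocytes and with a stricter oocyte filter. Median cumulus marker sums were 2275 CPM in F3 HFHS+Veh, 635 in CD+DHT and 1648 in CD+Veh, and their part in these differences was not tested. Gene counts per oocyte also differed, with medians of 585662 in HFHS+Veh and 2.62e+06 in CD+Veh.

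The comparisons between generations were added after the levels had been seen. In all 3 lineages that reach F3, Prkar1a was higher in F3 than in F2 and Prkaca and Adcy9 were lower. Pooled Prkar1a was 579 CPM against 115 in CD+Veh, 703 against 132 in CD+DHT and 643 against 122 in HFHS+Veh. The log2 folds were 2.33, 2.41 and 2.39, above 98.1%, 97.9% and 97.9% of all measured genes. Pooled Prkaca was 21.1 CPM against 120 in CD+Veh, 27.1 against 109 in CD+DHT and 8.61 against 117 in HFHS+Veh. The log2 folds were -2.48, -1.99 and -3.69, and 7.17%, 9.23% and 2.13% of genes lay lower. Without F3 CD+Veh oocyte 21, the CD+Veh log2 folds were 2.32 for Prkar1a and -2.54 for Prkaca. Adcy9 had log2 folds of -1.31, -1.63 and -2.01. Prkar2b was at 1.40, 0.51 and 0.82.

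Much of the transcriptome differed in the same comparisons. In CD+Veh 6 of 9 members were past 1.5-fold beside 64.49% of genes, in CD+DHT 5 of 9 beside 61.5%, and in HFHS+Veh 6 of 9 beside 68.48%. The share of members past 1.5-fold was near that of all genes. Gnas, among the 6 in CD+Veh, came under 1.5-fold on leaving out any of several single oocytes, F3 CD+Veh oocyte 21 among them. Between F1 and F2 CD+Veh, 2 of 9 members were past 1.5-fold beside 24.32% of 6356 genes. Prkar1a was higher in F1 (215 against 115 CPM, log2 fold 0.90) and Adcy9 lower (24.998 against 42.8 CPM, log2 fold -0.76). Prkaca was at 129 against 120 CPM. Without oocyte 1 of F2 CD+Veh animal 3, Adcy9 was at a log2 fold of -0.36. It was also under 1.5-fold with the mean over oocytes (-0.32), the median (-0.35) and mean RPKM (-0.29), and Prkar2b was past it with the mean (0.66) and mean RPKM (0.63) but not in the pooled counts (0.38).

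**Figure D5:**
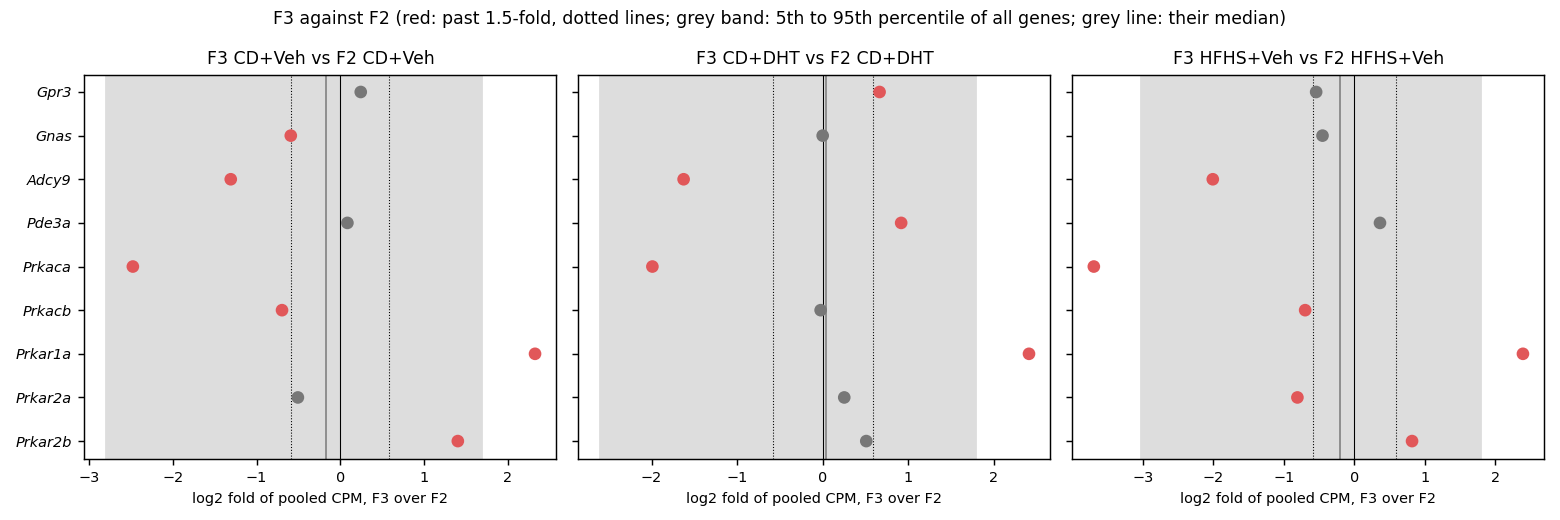
Log2 fold of pooled CPM in F3 over F2 for the 9 measured genes in each lineage, red where past 1.5-fold (dotted lines). The grey band spans the 5th to 95th percentile of all measured genes, and Prkar1a lies above it in each of the 3 lineages, at 2.33 to 2.41.

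HFHS+Veh is the 1 lineage with numbered animals in F2 and F3, and it allowed a test. An edgeR quasi-likelihood fit of F3 animals 22 and 26 against F2 animals 4, 5, 10 and 19 called 4 of 9 members tested, beside 23.58% of 11843 genes. Prkar1a sums were 561 and 743 CPM in F3 and 152, 143, 50.3 and 127 in F2, and Prkaca sums were 9.55 and 7.49 against 95.8, 115, 162 and 111. Neither gene overlapped between the generations, and the share of all genes without overlap was not counted. The edgeR log2 fold change was 2.72 for Prkar1a (SE 0.32, adjusted p 0.00095) and -3.64 for Prkaca (SE 0.43, adjusted p 0.00097). Adcy9 sums were 9.55 and 9.502 CPM against 46.96, 55.1, 22.49 and 35.6, with a log2 fold change of -1.82 (SE 0.40, edgeR adjusted p 0.011). Prkar2b sums were 180 and 130 CPM against 87.4, 103, 92.1 and 81.3, with a log2 fold change of 0.98 (SE 0.25, edgeR adjusted p 0.021). The median over all genes was -0.33, so relative to it the rises are larger and the falls smaller than these values. Gpr3 (-0.28), Gnas (-0.15), Pde3a (0.64), Prkacb (-0.50) and Prkar2a (-0.50) did not pass.

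Without F3 animal 22, the lone F3 animal being assumed to vary like the F2 animals, 2 of the 4 stayed called. Prkar1a (edgeR adjusted p 0.016) and Prkaca (0.018) passed, and Adcy9 (0.062) and Prkar2b (0.21) did not. Leaving out F2 animal 4 or animal 19 also ended the call of Prkar2b (edgeR adjusted p 0.059 and 0.064). The 8 libraries of animal 22 have characteristics that name F2. Its 5 kept oocytes had 284 to 671 CPM of Prkar1a and 0 to 34.2 of Prkaca, beside 238 to 1429 and 0 to 23.6 in animal 26. The 8 oocytes of F2 animals 5 and 10 whose characteristics name F3 belong to animals with 28.0 to 192 CPM of Prkar1a and 90.4 to 200 of Prkaca. Animals 4 and 19 had 2.35 to 243 CPM of Prkar1a and 84.7 to 148 of Prkaca, an overlapping range. These levels are of the genes compared and do not settle which label holds. Without animals 5 and 10, 4 of 9 members were called.

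The median cumulus marker sum was higher in F3, and its part in the difference was not tested. Of the 46 F3 oocytes, 10 had a cumulus sum below the median of the F1 and F2 oocytes (186 CPM). In these the median was 504 CPM of Prkar1a (70.3 to 1123) and 6.98 CPM of Prkaca (0 to 17.04). The lowest Prkaca levels were 73.7 CPM in F1 and 0 in F2. Fewer genes were detected in F3 than in F1 and F2, and its part in the difference was not tested. The labels give no library batch, so generation cannot be told apart from any batch that goes with it.

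The promoters of the members, of which Prkar1a and Prkaca differed in opposite directions between generations, were searched for the cyclic AMP response element TGACGTCA and its core TGACG on both strands. The window runs from 250 bases before to 50 after a RefSeq transcript start (GRCm38.p6). Promoter entries were found for 9 of the 10 genes, 22 windows in all. The full element was in 2 windows, both of Prkar1a and overlapping each other, and in 1.79% of all 32851 promoters. The core, which every full element also contains, was in 11 of the 22 windows and in 20.8% of all promoters. The windows are not independent. Besides those of Prkar1a, the Gnas windows starting at 174327499 and 174327518 overlap and share their match. A match is a description of the letters and not a binding site. The capitals below mark the core and the full element, on either strand.
Prkar1a promoter, chr11:109650699-109650998, plus strand: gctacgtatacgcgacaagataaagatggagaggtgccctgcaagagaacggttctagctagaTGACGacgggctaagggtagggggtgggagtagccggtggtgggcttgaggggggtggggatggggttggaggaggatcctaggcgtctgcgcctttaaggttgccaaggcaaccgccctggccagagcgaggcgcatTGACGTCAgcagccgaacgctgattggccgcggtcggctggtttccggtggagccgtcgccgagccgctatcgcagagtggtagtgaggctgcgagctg
Prkaca promoter, chr8:83972728-83973027, plus strand: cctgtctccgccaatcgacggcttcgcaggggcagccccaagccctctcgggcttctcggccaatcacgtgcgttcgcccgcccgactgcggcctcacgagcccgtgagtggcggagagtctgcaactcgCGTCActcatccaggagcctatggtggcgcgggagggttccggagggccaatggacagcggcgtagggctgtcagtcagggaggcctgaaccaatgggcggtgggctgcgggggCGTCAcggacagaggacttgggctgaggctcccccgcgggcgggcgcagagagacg

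The rest of the pathway was read from 8 lists of 121 genes. In F2, 0 of the 100 tested were called in any of the 3 edgeR comparisons, and their median log2 fold change was 0.03 in CD+DHT and 0.06 in HFHS+Veh against CD+Veh. In F3 against F2 HFHS+Veh, edgeR called 11 of 96 higher and 11 lower, 22.9% beside 23.58% of all genes. Of 7 other receptors and receptor brakes, 1 rose and 1 fell. The brake Rgs2, which dampens G protein signalling, was abundant (583 RPKM) and fell by 1.57 on the log2 scale (adjusted p 0.0051). Among the 15 other G protein subunits tested, 5 fell and 1 rose. The beta subunit Gnb1 (188 RPKM) was at -3.39 (adjusted p 0.0021) and Gnb2 at -3.35 (adjusted p 0.0068). Of the cyclases, Adcy8 had the highest median outside the members (0.69 RPKM) and none of 5 tested was called.

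Of 15 other genes with a phosphodiesterase symbol tested, 1 rose and 1 fell. Pde3b rose by 0.92 on the log2 scale (adjusted p 0.015), and Pde6d was at -1.17 without passing (adjusted p 0.11). Among other PKA genes, inhibitors and the cyclic AMP-activated exchange factor branch, 2 of 8 rose, one of them Rap1b, a small GTPase of that branch (125 RPKM, log2 fold change 1.22, adjusted p 0.0087). Of 16 anchoring proteins that tether PKA, 2 fell, and these were Akap2 (116 RPKM, -3.02, adjusted p 0.0019) and Wasf1 (-2.33, adjusted p 0.028). None of 6 genes of the cyclic GMP branch was called, among them Gucy2c (6.19 RPKM, 0.51) and Prkg1 (0.75). The last list held 24 genes of meiotic resumption at or after the step of PKA, not all of them PKA substrates. Of these, 6 rose and 2 fell. Ccnb1, the cyclin of the maturation kinase (418 RPKM), was at 1.23 (adjusted p 0.0027). Arpp19, a PKA substrate that inhibits a phosphatase when MASTL phosphorylates it, was at 2.17 (adjusted p 0.00076) and Mastl at 2.63 (adjusted p 0.00057), both named after their values were seen. The inhibitory kinase Pkmyt1 was at -3.33 without passing (adjusted p 0.054). All p-values of these lists are from the edgeR fit over all genes.

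In F2, the genes named for the largest fold change of each list did not pass. The prostaglandin receptor Ptger4 was at 0.50 in CD+DHT against CD+Veh, Rap1a at 0.39 and Wasf1 at 0.63. In HFHS+Veh against CD+Veh, Gnb2 was at 0.56, Pkmyt1 at 0.51 and Pde6d at -0.33. Prkg1 was at -0.43 in CD+DHT against HFHS+Veh. Each had an edgeR adjusted p of 1.0.

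Across the 157 oocytes, some genes varied alike. These rank correlations are given without a test, because the points share library, depth and the composition of the RNA, and rest on 4217 genes with a median of at least 20 CPM. For Gpr3 the most similar were Klf17 (Spearman's rho 0.71), Tpra1 (0.70) and Troap (0.69), at 0.54 to 0.86 within each generation, with 0.54 for the number of genes detected. For Pde3a they were Rpa1 (0.52), Prr14 (0.50) and Lnx2 (0.49), which within F3 were 0.39, 0.30 and 0.080. For Prkar2b they were Zfp735 (0.55), Cnot2 (0.53) and Cul1 (0.51), but these were 0.20, 0.17 and 0.28 within F1, 0.44, 0.38 and 0.25 within F2 and 0.16, 0.48 and 0.18 within F3. For Adcy3, at 0 in most oocytes, none exceeded 0.33 (Ern1). Among the members, Gpr3 and Prkar1a had a rho of 0.68 in F1 (n = 45), 0.80 in F2 (n = 66) and 0.22 in F3 (n = 46). For Prkaca and Prkar1a it was -0.66 in F1, -0.41 in F2 and 0.43 in F3.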

How the data were processed

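Raw counts per gene symbol and an RPKM table were deposited by the authors for the same 202 libraries. The submitters' processing notes name STAR 2.4.2a, Seurat 2.0 and mm10. For the counting program, the annotation and the strand setting: not given in the sources used here. Repeated symbols were summed (494 lines), and 92 spike-in lines were left out of library totals. Counts were scaled to CPM of gene counts. F2 animal sums entered 1 edgeR 4.0.16 quasi-likelihood fit (R 4.3.3, TMM, filterByExpr), and SEs were derived from its F statistic. DESeq2 1.42.0 and limma 3.58.1 served as alternatives. The edgeR fit was tested on simulated data for F2 CD+DHT against CD+Veh only. The alternatives and the fit of F3 against F2 were not. F1 and F3 groups were pooled with exact Poisson 95% intervals. No 2 libraries were identical (0 pairs). Oocytes of 1 group or animal are not replicates. F2 HFHS+DHT names no animal and entered no comparison.

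The members and gene lists were chosen with earlier results of these data known. Named were all members, and of each other list the gene with the highest median RPKM, any gene called in F2 and the gene with the largest F2 change at 10 or more mean CPM. For Gpr3, Adcy3, Pde3a and Prkar2b the 3 genes of highest rank correlation were added. Pooling and figures used scipy 1.17.1, numpy 2.4.6, pandas 2.3.3 and matplotlib 3.10.9 under Python 3.11.15.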

Additional observations from a re-analysis of the deposited data

Results flagged for a closer look

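In 9 of 60 sets of 4 to 10 values, 1 value lay far from the rest by Dixon's criterion. Chance flags about 3 where values vary continuously, which Adcy3, at 0 in most oocytes, does not. In F1 CD+DHT and F2 HFHS+DHT every other Adcy3 value was 0, so any single count would have been flagged. No excess over chance is read from these numbers. Among F2 animals, Pde3a was at 7.35 CPM in CD+DHT animal 9, with 20.8 the nearest, and Prkacb was at 6.76 CPM in CD+DHT animal 8, with 13.51 the nearest. Adcy3 was at 0.427 CPM in HFHS+Veh animal 5. In F1 CD+Veh, Prkaca was at 420 CPM in oocyte 8 (nearest 220), Prkar2b at 220 CPM in oocyte 7 (nearest 131) and Adcy3 at 1.87 CPM in oocyte 12. In F1 CD+DHT, Prkar2a was at 60.2 CPM in oocyte 11 (nearest 134), and Adcy3 at 3.77 CPM in oocyte 3, which is 1 count. In F2 HFHS+DHT, Adcy3 was at 0.414 CPM in oocyte 5.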

How the results depend on the processing

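No paired analysis was possible because no animal number is shared between the F2 groups and the pooled F1 and F3 comparisons come from no test. In F2, DESeq2 called 1 gene in CD+DHT against CD+Veh and 1 in CD+DHT against HFHS+Veh. With animals left out in turn, 0 genes were called. No member was called in F2 under any alternative. Signs of F2 members far from the threshold turned. On mean log2 CPM and mean log2 RPKM of oocytes, CD+DHT against CD+Veh gave -0.31 and -0.27 for Prkaca, 0.034 and 0.032 for Prkacb, and -0.35 and -0.34 for Prkar1a. HFHS+Veh against CD+Veh gave -0.14 and -0.025 for Adcy9, -0.40 and -0.36 for Prkar1a, and -0.021 and -0.023 for Prkar2a, and CD+DHT against HFHS+Veh gave -0.39 and -0.34 for Prkaca. These scales moved the median of all genes in CD+DHT against CD+Veh to -0.27 and -0.18. Without HFHS+Veh animals 5 and 10, Gpr3 was at 0.19 and Prkaca at -0.26 against CD+Veh, and CD+DHT against HFHS+Veh gave -0.25 for Pde3a, -0.17 for Prkar1a and 0.13 for Prkar2b. With the stricter oocyte filter (500000 counts and 6000 genes), Prkar2b was at 0.019 in CD+DHT against HFHS+Veh.

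With F2 animals left out in turn, CD+DHT against CD+Veh ranged from -0.14 to 0.27 (Prkaca), -0.15 to 0.14 (Prkacb), -0.0050 to 0.26 (Prkar1a) and -0.12 to 0.081 (Prkar2a). HFHS+Veh against CD+Veh ranged from -0.27 to 0.18 (Gpr3), -0.0020 to 0.33 (Adcy9), -0.25 to 0.25 (Prkaca), -0.085 to 0.26 (Prkar1a) and -0.16 to 0.12 (Prkar2a). CD+DHT against HFHS+Veh ranged from -0.090 to 0.27 (Pde3a), -0.11 to 0.31 (Prkaca), -0.25 to 0.040 (Prkacb), -0.14 to 0.21 (Prkar1a), -0.15 to 0.12 (Prkar2a) and -0.14 to 0.077 (Prkar2b).

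In F3 against F2 HFHS+Veh, 2792 genes were called, 1240 by limma-voom, and 1006 (without F3 animal 22) to 3335 with animals left out in turn. F2 animals 19 and 4 gave 1773 and 1829. Members called numbered 2 with limma-voom and 4 under DESeq2, RLE scaling and the other oocyte filters. On mean log2 CPM, Prkar2a passed and Prkar2b did not. Gnas ranged from -0.24 to 0.020 over animals left out, and Gpr3 was at 0.015 with all oocytes.

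For pooled counts, the Adcy9 log2 fold in F1 CD+DHT against CD+Veh was -0.064 with the mean, -0.41 with the median and -0.055 with mean RPKM. The members past 1.5-fold numbered 0 there with the median and 0 to 1 with oocytes left out. They numbered 0 to 3 in F1 HFHS+DHT against CD+Veh, and 3 (median) and 1 to 2 (oocytes left out) against HFHS+Veh. In F3 CD+DHT against CD+Veh it was 1 with the mean or mean RPKM (Prkaca, in place of Prkar2a and Adcy9). With oocytes left out it was 1 to 3 there. In F3 HFHS+Veh against CD+Veh it was 1 with the median. Prkaca was not counted there because both its medians, 3.91 and 9.75 CPM, were under the minimum of 10 CPM. Its fold was not under 1.5 in any setting. Between F1 and F2 CD+Veh it was 1 (median) and 1 to 3. Ordered by mean RPKM, 6 of 10 members kept their place. The cause of the other changes was not tested. F3 CD+Veh oocyte 21 was left out of the pooled counts only, after seeing the data. Without it, 2 and 3 members were past 1.5-fold within F3. Between F3 and F2 CD+Veh 5 were past it, and Gnas was no longer among them.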
